A study of Piriqueta cistoides subsp. caroliniana with 18 samples.

Results

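Hybrid plants of the perennial herb Piriqueta were set against both of their parent morphotypes, caroliniana and viridis, at the end of a drought treatment. The comparison rests on 9 of the 18 plants of the series: hybrid drought plants 1, 2 and 3, caroliniana drought plants 1, 2 and 3, and viridis drought plants 1, 2 and 3. They were chosen by morphotype and treatment in the labels. The organism is labelled Piriqueta cistoides subsp. caroliniana for all plants, and hybrid, caroliniana and viridis are its labelled morphotypes. The drought plants went through 4 cycles of drought in 36 days, and the other 9 plants, 3 of each morphotype, were kept well-watered. All were grown from cuttings in sand in a greenhouse at about 35 °C by day and 27 °C by night with 12 hours of light. The labels do not say whether the 3 plants of a group came from separate parents or from cuttings of 1 plant. They also do not say which hybrid generation the hybrids represent, so p-values do not reach beyond these plants. The spread behind the p-values and SEs is pooled over all 18 arrays and 6 groups. It joins array error with plant differences and is not the spread of the compared plants alone.

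Leaf RNA was hybridised in pairs, 1 plant in Cy5 and 1 in Cy3, on 18 arrays of soybean cDNA clones. The arrays close into 1 loop in which every plant was labelled with Cy5 on one array and with Cy3 on another. Of these arrays, 4 put a hybrid drought plant directly against a drought plant of a parent. Hybrid plant 1 met caroliniana plant 2 and hybrid plant 3 met caroliniana plant 1, while hybrid plants 2 and 3 both met viridis plant 3. The array of hybrid plant 2 and viridis plant 3 carries the word BAD in its title. All other paths between hybrid and parents run through further plants of the loop. Every value is a difference of log ratios, since the arrays give no level of a gene, and the labelled leaf tissue could therefore not be checked by the level of its markers. Differences are hybrid minus parent, with each deposited value taken as Cy5 against Cy3. If it were the reverse, the sign of every difference here would turn, and the base of the logarithm is not stated, so sizes are given in log-ratio units.

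Hybrids can lie between their parents in expression, match one of them, or lie outside the range of both, which is called transgressive expression. Leaves under drought typically close their stomata while light is still absorbed, and plants are known to alter light-harvesting proteins and to use ascorbate peroxidase and catalase against hydrogen peroxide. They are also known to make compatible solutes and phenolic compounds and to draw on transcription factors of the DREB, MYB and bZIP families. The gene names below are those of the soybean clones to which Piriqueta RNA was hybridised, so a value may include related gene copies.

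No probe separated the hybrid from either parent under drought at an adjusted p of 0.05. Among probes with a gene symbol, those with the smallest p were clones of APX1, a cytosolic ascorbate peroxidase, of CAB3, which encodes a light-harvesting protein that binds chlorophyll a and b, of the soybean locus LOC547870 and of VLXB, a vegetative lipoxygenase. The fitted differences from both parents were positive for the clones of APX1, CAB3 and VLXB and negative for LOC547870. Hybrid and parent plants overlapped for VLXB Gm05996, CAB3 Gm05985 and Gm06115, and APX1 Gm05712 and Gm02338. The differences for APX1 Gm05083 and LOC547870 Gm04271 stayed within 1.5 times their size when any 1 plant or the array marked BAD was left out, whereas those for CAB3 against viridis depended on viridis plant 3.

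By the limma moderated test, 0 of 7880 tested probes (0%) passed for hybrid minus caroliniana, 0 (0%) for hybrid minus viridis and 0 (0%) for hybrid minus the mean of both parents. The lowest adjusted p was 0.55, 0.286 and 0.34 in that order. A stricter question, whether the hybrid lay outside both parents on the same side, was tested with the larger of the limma p-values against each parent, and 0 of 7880 probes (0%) passed. At an unadjusted p below 0.05 there were 288 probes (3.65%) against caroliniana, 1067 (13.5%) against viridis, 779 (9.89%) against the mid-parent value and 161 (2.04%) beyond both parents. Split by sign, they were 159 positive (2.02%) and 129 negative (1.64%) against caroliniana, 501 (6.36%) and 566 (7.18%) against viridis, 388 (4.92%) and 391 (4.96%) against the mid-parent value, and 105 (1.33%) and 56 (0.711%) beyond both parents. The parents themselves, caroliniana minus viridis, had 171 such probes (2.17%) and 0 of 7880 (0%) past the adjusted threshold. That unadjusted count was 313 without caroliniana drought plant 1, 312 without hybrid well-watered plant 2 and 281 without viridis drought plant 2.

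The 95% interval of a probe's difference reached a median of 0.211 to each side against caroliniana, 0.213 against viridis and 0.184 against the mid-parent value. Without the array marked BAD, 0 probes passed in every comparison above, and the counts at an unadjusted limma p below 0.05 were 256 against caroliniana, 807 against viridis and 613 against the mid-parent value. Without viridis plant 3, 2 probes passed against viridis and 646 had an unadjusted limma p below 0.05, of which 406 were among the 1067. Without hybrid well-watered plant 2, a plant outside this comparison that shares an array with hybrid drought plant 1, 10 probes passed against the mid-parent value, all on the positive side and APX1 Gm05083 among them (0.41, limma adjusted p = 0.0422). With array quality weights and arrays treated as independent, 415 probes passed against viridis and 54 against the mid-parent value. The largest of these weights, 2.93, fell on the array of hybrid plant 3 and viridis plant 3, against 0.80 for the array marked BAD. The weighted contrast with viridis therefore leans on viridis plant 3. With arrays treated as independent and no weights 0 passed.

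**Figure D1:**
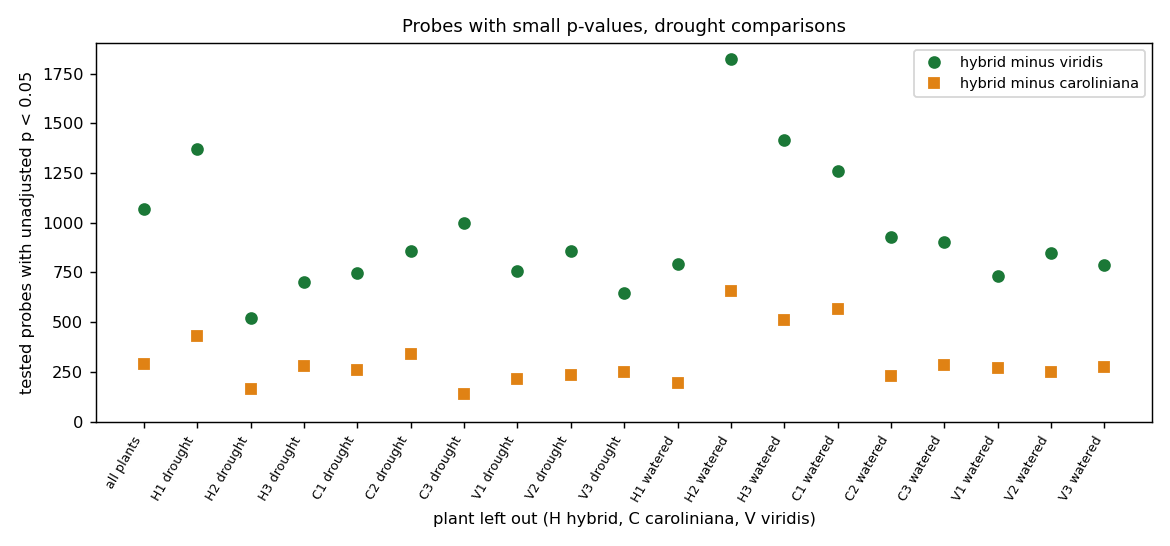
Number of tested probes with an unadjusted limma p below 0.05 for hybrid minus viridis (circles) and hybrid minus caroliniana (squares) under drought, with all plants and with each of the 18 plants left out in turn. With all plants there were 1067 and 288 such probes, and the count against viridis lay above the count against caroliniana in each setting shown.

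APX1 removes hydrogen peroxide with ascorbate as the electron donor, and its probe Gm05083 had the smallest p of the named probes against viridis and against the mid-parent value. Its estimated plant values, centred on 0 over the 18 plants, were 0.23, 0.31 and 0.48 in hybrid plants 1, 2 and 3, against 0.19, -0.03 and 0.12 in caroliniana plants 1, 2 and 3 and -0.12, -0.04 and -0.07 in viridis plants 1, 2 and 3. All 3 hybrid plants lay above all 6 parent plants, as for 161 of 5371 complete probes (3.0%). Caroliniana plant 1 was only slightly below hybrid plant 1. In whole leaves, fewer cells of a type and less RNA per cell cannot be told apart. The difference was 0.29 ± 0.0898 (SE) against caroliniana and 0.51 ± 0.0909 against viridis, and the limma p was 0.00499 (adjusted p = 0.986) and 3.63e-05 (adjusted p = 0.286). The 4 direct arrays gave 0.15 and 0.39 against caroliniana and 0.48 and 0.44 against viridis, the third of these on the array marked BAD. Without that array the differences were 0.32 and 0.58, and without viridis plant 3 they were 0.33 and 0.59.

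The other clones of APX1 were on the same side but less even. Gm05712 had 0.37 ± 0.152 against caroliniana and 0.32 ± 0.154 against viridis, with direct arrays between -0.02 and 0.59. Gm02338 had 0.16 ± 0.22 against caroliniana and 0.70 ± 0.223 against viridis, and the first of these was -0.0091 without caroliniana plant 1. The hybrid plants overlapped the parent plants for both of these clones. Catalases, which break down hydrogen peroxide without a donor, had mid-parent differences of 0.11 ± 0.186 for CAT1 and 0.23 ± 0.277 for CAT5, and SODB, an iron superoxide dismutase, had -0.08 ± 0.0842. Of the 6 probes of 4 genes in the scavenging list, 3 had an unadjusted limma p below 0.05 against the mid-parent value, all on the positive side and all of APX1 (background 4.92% of all probes on that side). The list's median difference was 0.29, against -0.02 over all tested probes.

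**Figure D2:**
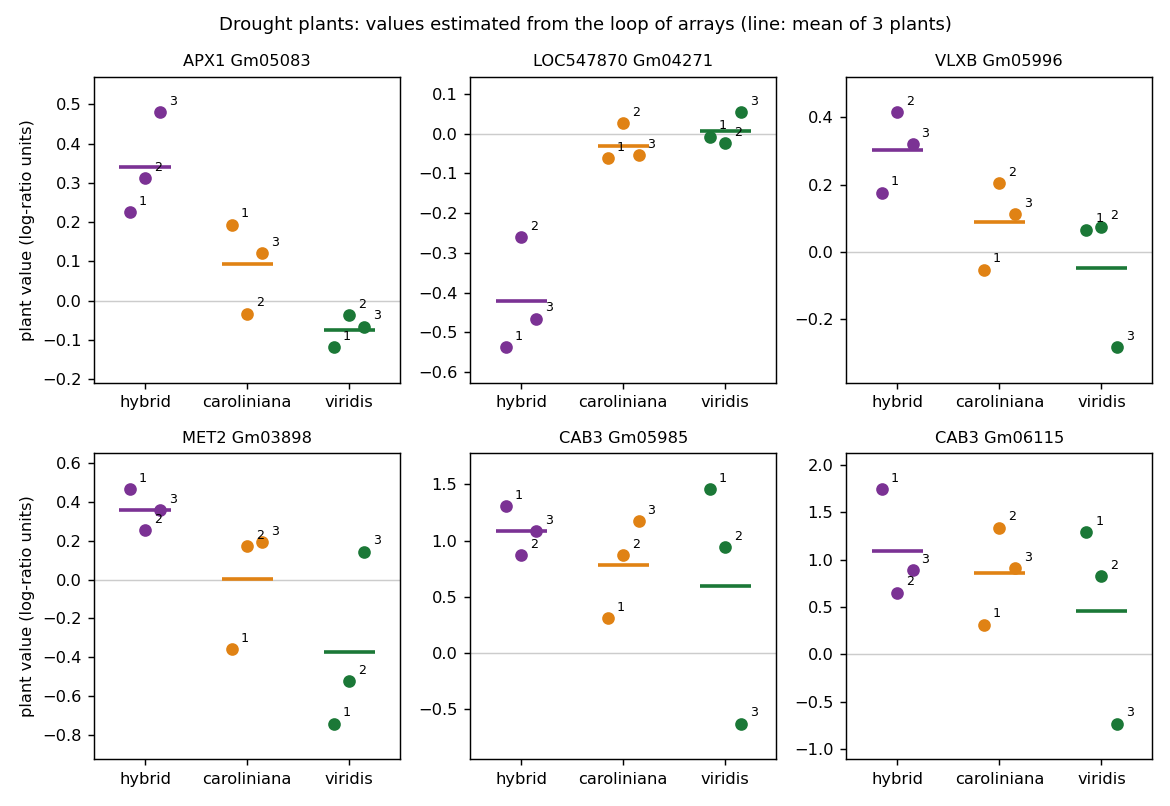
Estimated values of the 9 drought plants in log-ratio units for 6 probes, with the hybrid left of caroliniana and viridis, points numbered by plant and a line at each mean of 3 plants. The hybrid plants lie outside all 6 parent plants for APX1 Gm05083 (0.23 to 0.48, above) and LOC547870 Gm04271 (-0.54 to -0.26, below), while viridis plant 3 lies far below the other viridis plants for both CAB3 probes.

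LOC547870, whose function the array's annotation does not give, had hybrid plants below all parent plants, as for 305 of 5371 complete probes (5.68%). Probe Gm04271 had plant values of -0.54, -0.26 and -0.47 in hybrid plants 1, 2 and 3, against -0.06, 0.03 and -0.05 in caroliniana plants and -0.01, -0.02 and 0.05 in viridis plants. The 6 parent plants lay within a narrow band around 0 and the 3 hybrid plants were all below it. All 4 direct arrays were on the negative side, with -0.51 and -0.45 against caroliniana and -0.36 (the array marked BAD) and -0.47 against viridis. The difference was -0.37 ± 0.103 against caroliniana and -0.41 ± 0.104 against viridis (limma adjusted p = 0.986 and 0.303). Without the array marked BAD these differences were -0.38 and -0.44.

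CAB3 binds chlorophyll in the antenna that passes light energy to the photosystems, and it had the largest differences of the named probes. All 4 of its clones had positive fitted differences from both parents. The difference against caroliniana was 1.91 ± 0.506 for Gm01099, 1.62 ± 0.503 for Gm05769, 0.89 ± 0.229 for Gm05985 and 0.69 ± 0.233 for Gm06115. Against viridis it was 2.16 ± 0.516, 1.55 ± 0.508, 1.07 ± 0.232 and 0.89 ± 0.236 for the same clones. The adjusted limma p was 0.986 for each against caroliniana and between 0.303 and 0.346 against viridis, so none passed. Clones of 1 gene are no replicates of each other.

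Plant by plant, the groups were less separate than these differences. For Gm05985 the plant values were 1.31, 0.88 and 1.08 in hybrid plants 1, 2 and 3, against 0.31, 0.87 and 1.17 in caroliniana plants and 1.46, 0.94 and -0.63 in viridis plants. For Gm06115 they were 1.75, 0.65 and 0.88 in hybrid plants, against 0.32, 1.34 and 0.91 in caroliniana plants and 1.29, 0.82 and -0.73 in viridis plants. The hybrid plants overlapped both parents, and viridis plants 1 and 2 lay among or above the hybrid plants. Viridis plant 3, the only viridis plant directly hybridised with hybrid drought plants, was the lowest of the 9 for both clones. Caroliniana plant 1, which met hybrid plant 3 directly, was the next lowest.

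For Gm05985 the mean over plants was 1.09 ± 0.215 (SD, n = 3) in the hybrid, against 0.78 ± 0.437 in caroliniana and 0.59 ± 1.09 in viridis. The fitted difference of 1.07 against viridis is larger than the gap between these means, and the reason was not tested. Its SE of 0.232 is pooled over all groups and does not measure the wide spread of the viridis plants. The direct arrays of this clone gave 0.35 and 0.86 against caroliniana and 1.59 (the array marked BAD) and 1.63 against viridis. Without viridis plant 3 the difference against viridis was 0.43 for Gm01099, 0.05 for Gm05769, 0.51 for Gm05985 and 0.19 for Gm06115. Against caroliniana it was then 1.05, 0.81, 0.65 and 0.39. The highest differences against viridis with 1 plant left out were 2.78, 1.94, 1.24 and 1.03 for the same clones. The first of these was without viridis plant 1. Gm01099 passed the adjusted limma threshold against viridis in 1 of the 18 settings with a plant left out. Without the array marked BAD, the differences against viridis were 1.46, 0.73, 0.95 and 0.70.

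**Figure D3:**
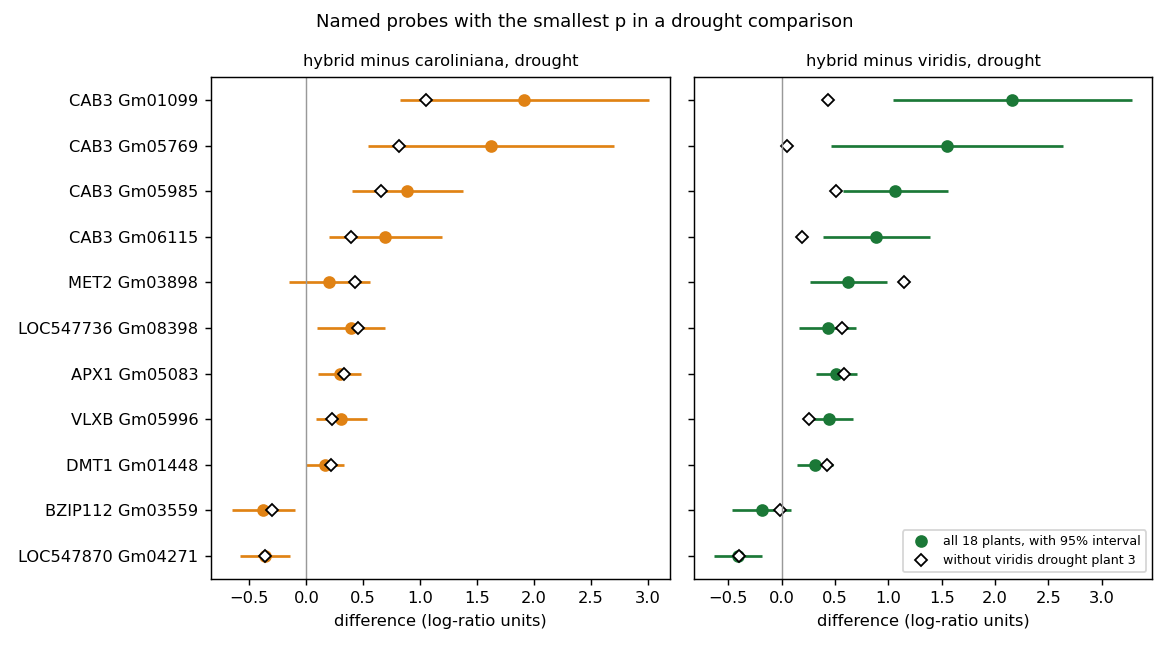
Hybrid minus caroliniana (left) and hybrid minus viridis (right) under drought in log-ratio units for the 11 probes with a gene symbol that had the smallest p, with 95% intervals, and the same difference without viridis drought plant 3 (open diamonds). The diamonds of the 4 CAB3 probes lie between 0.05 and 0.51 against viridis, below their values of 0.89 to 2.16 with all plants, while those of APX1 Gm05083 and LOC547870 stay near their circles.

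Other genes of photosynthesis did not share the size of the CAB3 differences. PSAD, a subunit of photosystem I, had mid-parent differences of 0.08 ± 0.108 and -0.12 ± 0.077 for its clones Gm06019 and Gm10356. GSA1 and HEMB, enzymes of the early steps of chlorophyll synthesis, had -0.07 ± 0.0742 and -0.09 ± 0.102. Of the 10 probes of 5 genes in the list of photosynthesis and chlorophyll synthesis, 4 had an unadjusted limma p below 0.05 against the mid-parent value, all on the positive side and all of CAB3 (background 4.92% of all probes on that side, 9.89% on either). The list's median difference was 0.08. The leaf markers on the array, CAB3, PSAD and CHLH, had a median of 0.44 over 8 probes, but no probe lay near it. The CAB3 clones had 0.79 to 2.04, while CHLH had 0.06 ± 0.221 and 0.07 ± 0.121 and PSAD the values above. The seed storage genes had a median of -0.05 over 11 probes with 0 at an unadjusted limma p below 0.05, and no root nodule marker was matched.

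VLXB belongs to the vegetative lipoxygenases, which oxidise polyunsaturated fatty acids. Its probe Gm05996 had plant values of 0.18, 0.41 and 0.32 in hybrid plants 1, 2 and 3, against -0.05, 0.20 and 0.11 in caroliniana plants and 0.07, 0.07 and -0.28 in viridis plants. Hybrid plant 1 lay just below caroliniana plant 2, so the groups overlapped. The difference was 0.31 ± 0.106 against caroliniana and 0.44 ± 0.108 against viridis (limma adjusted p = 0.986 and 0.303), and without viridis plant 3 it was 0.22 and 0.25. Of the direct arrays, 1 of 4 was on the other side, with -0.16 for hybrid plant 1 minus caroliniana plant 2. The other named lipoxygenases included LOX3 Gm09453, with -0.21 ± 0.0917 against viridis, and LOX1.1, with 0.37 ± 0.201 against the mid-parent value. Of 13 lipoxygenase probes of 7 genes, 1 had an unadjusted limma p below 0.05 against the mid-parent value, near the 9.89% of all probes, and the median was 0.0011.

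MET2 was further from viridis than from caroliniana. Its probe Gm03898 had plant values of 0.47, 0.26 and 0.36 in hybrid plants 1, 2 and 3, against -0.36, 0.17 and 0.19 in caroliniana plants and -0.74, -0.52 and 0.14 in viridis plants. The difference was 0.63 ± 0.17 against viridis and 0.20 ± 0.168 against caroliniana. All 3 hybrid plants lay above all 6 parent plants, as for 161 of 5371 complete probes (3.0%). Here viridis plant 3 was the highest viridis plant: without it the difference from viridis was 1.14 and passed the limma test (adjusted p = 0.0298), and without caroliniana plant 1 the difference from caroliniana was -0.089. A second clone, Gm01641, had 0.54 ± 0.168 against viridis and 0.21 ± 0.166 against caroliniana.

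DMT1, a divalent metal transporter, had 0.31 ± 0.0796 against viridis and 0.17 ± 0.0786 against caroliniana for Gm01448. Its direct arrays were even, with 0.22 and 0.23 against caroliniana and 0.18 and 0.23 against viridis. LOC547736, which has no function in the annotation, had 0.43 ± 0.123 against viridis and 0.39 ± 0.139 against caroliniana for Gm08398, but its 3 direct arrays with a value were 1.01, 0.91 and -0.20. The bZIP transcription factor BZIP112 had -0.38 ± 0.129 against caroliniana and -0.18 ± 0.128 against viridis for Gm03559. The difference from viridis was -0.02 without viridis plant 3 and -0.03 without the array marked BAD.

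In the remaining lists the counts are set against all tested probes, of which 9.89% had an unadjusted limma p below 0.05 against the mid-parent value (4.92% positive and 4.96% negative). Of 33 probes of 29 transcription factor genes, 1 with a positive and 2 with a negative difference had such a p, a share near that of all probes. DREB1, a factor that binds dehydration-responsive elements, had 0.18 ± 0.0751. Its 3 hybrid plants lay above all 6 parent plants, as for 161 of 5371 complete probes (3.0%). MYB68 Gm04138 had -0.19 ± 0.0804, but -0.095 without the array marked BAD, -0.085 without viridis plant 3 and -0.079 without hybrid plant 2. BZIP112, above, had -0.28 ± 0.112, and -0.17 without the array marked BAD. The list's median was -0.05, close to that of all probes.

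Of 26 probes of 14 phenylpropanoid and flavonoid genes, 3 had an unadjusted limma p below 0.05 against the mid-parent value, all on the positive side, against 4.92% of all probes on that side and 9.89% on either. They were 4CL2 Gm00599, a 4-coumarate:CoA ligase, with 0.15 ± 0.07, CYP98A2 Gm08062, a hydroxylase of the phenylpropanoid pathway, with 0.38 ± 0.175, and CYP93E1 Gm02458 with 0.16 ± 0.0733. CYP93E1 is in the list by its name only and is known in soybean as an enzyme of triterpenoid saponin synthesis. The other clones of CYP98A2 lay on both sides, with 0.15 ± 0.0696 for Gm12080 and -0.19 ± 0.0981 for Gm15708. The list's median was 0.02.

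Among 10 probes of 5 genes for compatible solutes, polyamines and water transport, 1 had an unadjusted limma p below 0.05 against the mid-parent value, near the 9.89% of all probes. It was CWINV, a cell wall invertase that splits sucrose outside the cell, with 0.14 ± 0.0507. PIP2-6, a water channel of the plasma membrane, had 0.21 ± 0.124. Glutathione transferases (7 probes of 5 genes) and 14-3-3 proteins (6 probes of 4 genes) had 0 such probes, with medians of 0.0017 and 0.0071. In the list of heat shock and seed maturation genes, 1 of 13 probes had an unadjusted limma p below 0.05 against the mid-parent value (9.89% of all probes), PM34 with -0.22 ± 0.101, and PM37 Gm04880 had 0.42 ± 0.187 against viridis. Among 9 ribosomal and reference probes, RPL2 Gm13449 had -0.20 ± 0.0845 and was the only one at an unadjusted limma p below 0.05, likewise near the share of all probes.

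Counted over complete probes, the 3 hybrid drought plants lay outside all 6 parent drought plants for 466 of 5371 probes (8.68%). They lay above the parents for 161 (3.0%) and below them for 305 (5.68%). Among the 331 complete probes with 1 gene symbol the numbers were 11 and 18 (8.76% together), a share near that of all probes. The plant values are estimated from the closed loop and neighbouring plants share array error, so these counts are a description. Against caroliniana alone the groups did not overlap for 785 probes (14.6%), and against viridis alone for 1373 (25.6%).

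The direct arrays differed in how far they ran together. After the dye effect of each probe was removed, hybrid plant 1 minus caroliniana plant 2 and hybrid plant 3 minus caroliniana plant 1 correlated with r = 0.09 over 7765 probes. The arrays of hybrid plants 2 and 3 against viridis had r = 0.52 over 7670 probes, and these share viridis plant 3. Hybrid plant 3 minus caroliniana plant 1 and hybrid plant 3 minus viridis plant 3 share hybrid plant 3 and had r = 0.57. Pairs without a shared plant also correlated. Hybrid plant 1 minus caroliniana plant 2 had r = 0.25 with each array against viridis. Hybrid plant 3 minus caroliniana plant 1 had r = 0.32 with the array marked BAD. With the dye effect left in, the pair against caroliniana had r = -0.28 and the pair against viridis 0.11. These are correlations across probes, which are not independent replicates. The array marked BAD had a residual of 0.178 (root mean square), within the range of 0.121 to 0.302 of all arrays. Its median absolute deviation was 0.246, toward the upper end of the range of 0.115 to 0.302. Its quality weight was 0.80, against 2.93 for the array of hybrid plant 3 and viridis plant 3. Why it was marked is not stated in the labels.

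Whether the hybrid differed from its parents under drought more than without it was tested as the drought difference minus the same difference among well-watered plants. By the limma test, 0 of 7880 probes (0%) passed for caroliniana, 0 (0%) for viridis and 0 (0%) for the mid-parent value, with lowest adjusted p of 0.827, 0.189 and 0.271. At an unadjusted limma p below 0.05 there were 295 (3.74%), 305 (3.87%) and 431 probes (5.47%), the last of these 261 positive (3.31%) and 170 negative (2.16%). Among the settings with 1 plant left out, the count changed most without hybrid well-watered plant 2, whose 2 arrays leave with it. The cause was not tested. Without hybrid well-watered plant 2, 130 probes passed against caroliniana, 218 against viridis and 401 against the mid-parent value, 276 of these positive and 125 negative. The 2 arrays of that plant had residuals of 0.238 and 0.302, the second of which is the largest of all arrays. Without viridis drought plant 3, 2 probes passed against viridis and 2 against the mid-parent value, both MET2 clones in either comparison.

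For APX1 Gm05083 the mid-parent difference was 0.40 ± 0.0787 under drought and -0.02 ± 0.078 in well-watered plants, and the difference between these was 0.42 ± 0.0989 (limma adjusted p = 0.771). Within the hybrid, APX1 Gm05083 changed with drought by 0.47 ± 0.0927 (limma adjusted p = 0.0101), while it had 0.05 ± 0.0917 in caroliniana and 0.04 ± 0.0919 in viridis. For LOC547870 the mid-parent difference was -0.39 ± 0.0905 under drought and -0.01 ± 0.0897 in well-watered plants, and the difference between these was -0.38 ± 0.114 (limma adjusted p = 0.771). LOC547870 changed with drought in the hybrid by -0.55 ± 0.107 (limma adjusted p = 0.0077), while it had -0.16 ± 0.105 in caroliniana and -0.19 ± 0.106 in viridis. The probes past the adjusted threshold for drought were 163 of 7880 in the hybrid (2.07%), 63 in caroliniana (0.799%) and 56 in viridis (0.711%). Without hybrid well-watered plant 2 the difference between treatments passed for both probes, with 0.53 (limma adjusted p = 0.00654) for APX1 and -0.52 (adjusted p = 0.0171) for LOC547870.

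For CAB3 Gm01099 the mid-parent difference was 2.04 ± 0.451 under drought and -0.14 ± 0.453 in well-watered plants, and for CAB3 Gm05985 it was 0.98 ± 0.201 and 0.18 ± 0.199. The difference between treatments was 2.18 ± 0.639 for Gm01099 and 0.80 ± 0.252 for Gm05985, with a limma adjusted p of 0.771 for both, and for Gm01099 it was 0.89 without viridis plant 3. CAB3 Gm05985 changed with drought in all morphotypes, by 2.33 ± 0.237 in the hybrid, 1.47 ± 0.234 in caroliniana and 1.59 ± 0.235 in viridis (limma adjusted p = 2.19e-05, 0.00431 and 0.00197). These SEs and p-values rest on the pooled spread. They do not measure the spread of the drought plants of each morphotype, which was widest in viridis for this clone.

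MIPS, the synthase of the first step to inositol, differed from these in where its values lay. Its mid-parent difference under drought was 0.30 ± 0.157 for Gm00068, 0.09 ± 0.0872 for Gm03671 and -0.02 ± 0.0656 for Gm05530. In well-watered plants it was -0.43 ± 0.156, -0.26 ± 0.0864 and -0.20 ± 0.065, so the larger part of the difference between treatments lay on the well-watered side. That difference was 0.73 ± 0.198, 0.35 ± 0.11 and 0.18 ± 0.0824, with an adjusted limma p of 0.771 for each. CYP98A2 Gm08062 had 0.38 ± 0.175 under drought and -0.23 ± 0.174 in well-watered plants, and MET2 Gm03898 had 0.41 ± 0.148 and -0.29 ± 0.146. PRX2B had a difference from viridis of 0.22 ± 0.0767 under drought and one from caroliniana of 0.01 ± 0.0758. Its difference from viridis under drought minus that in well-watered plants was 0.40. This had the smallest limma p of the named probes in that comparison but did not pass the adjusted threshold.

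The hybrid was also placed on the probes that respond to drought in a parent it was not compared with, so that list and comparison share no plant. This description was added after the data had been seen. Drought against well-watered passed the limma test in caroliniana for 63 probes, 55 of them positive. On these, the hybrid minus viridis difference lay on the drought side for 54 of 63, with a median of 0.43 toward drought, and 33 (52.4%) had an unadjusted limma p below 0.05 on that side. The 54 were 49 of the 55 positive and 5 of the 8 negative probes of the list. Over all tested probes 55.7% lay on the side of the caroliniana drought effect, with a median of 0.02. Without viridis plant 3, 53 of 63 lay on the drought side but the median was 0.20, and 3 probes had an unadjusted limma p below 0.05 on that side. Without the array marked BAD the median was 0.47.

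Drought against well-watered in viridis passed the limma test for 56 probes, 53 of them positive. On these, hybrid minus caroliniana lay on the drought side for 50 of 56, with a median of 0.34 toward drought, and 20 (35.7%) had an unadjusted limma p below 0.05 on that side. The 50 were 49 of the 53 positive and 1 of the 3 negative probes, so the count rests on positive probes. Over all tested probes the share on the drought side was 53.2% and the median 0.01. Without viridis plant 3, 50 of 56 lay on the drought side with a median of 0.27. In that setting 14 had an unadjusted limma p below 0.05 on that side. The lists and comparisons still meet through the arrays of the loop, and the probes of a list can hold clones of 1 gene, so neither count is a test.

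The plants differed widely within groups on these probes. The median value toward drought on the caroliniana list was 1.03, 0.62 and 0.78 in hybrid drought plants 1, 2 and 3, against 0.49, 0.89 and 0.57 in caroliniana plants and 0.77, 0.72 and 0.14 in viridis plants. Viridis plant 3 was the lowest drought plant, and the hybrid plants overlapped caroliniana and lay near viridis plants 1 and 2. On the viridis list the medians were 1.13, 0.63 and 0.89 in the hybrid, against 0.49, 0.95 and 0.70 in caroliniana and 0.80, 0.77 and 0.15 in viridis. Among the well-watered hybrid plants the medians on the caroliniana list were -1.23, -0.30 and -0.63, so that hybrid plant 1 was the furthest from the drought plants and plant 2 the nearest of all well-watered plants. The part of these single plants in the differences above is given by the values without them, and no cause was tested.

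**Figure D4:**
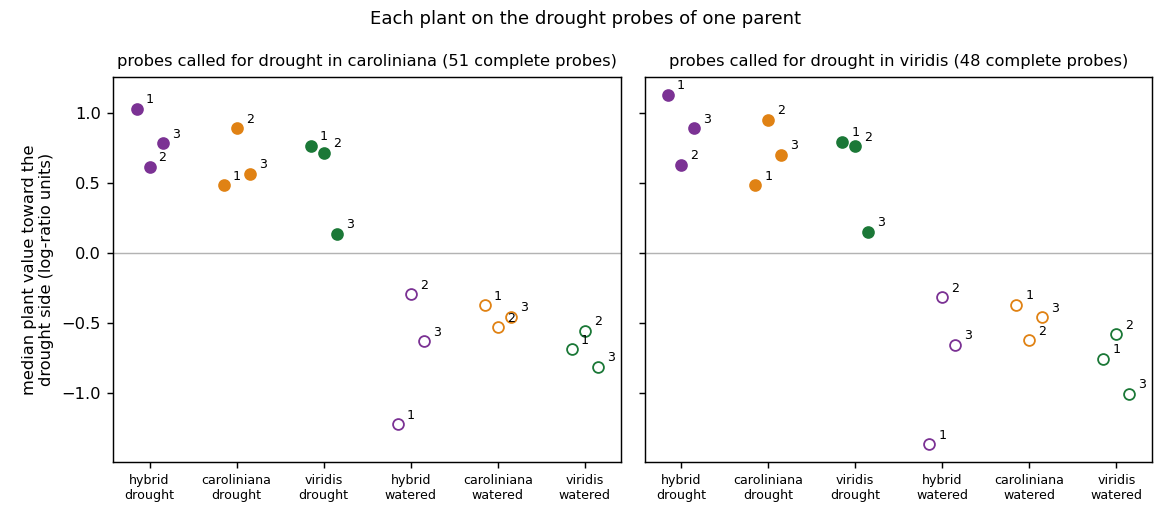
Median plant value toward the drought side in log-ratio units for each of the 18 plants, on the probes that passed for drought in caroliniana (51 complete probes, left) and in viridis (48, right), drought plants filled and well-watered plants open. Viridis drought plant 3 lies at 0.14 and 0.15, below the other 8 drought plants, which lie between 0.49 and 1.13.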

How the data were processed

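The deposited values are 1 log ratio per probe and array (unit recorded as log2, since the labels state neither base nor direction), already normalized by the authors with a method not given in the sources used here. Array means were -0.00144 to 0.0112, and 5962 to 8134 probes had a value. Per the labels' protocols, 4 µg of total RNA was amplified before Cy3 and Cy5 labelling. Which plant was in which dye was taken from the array titles, with the second plant code read as Cy5. The other order would turn the sign of every difference here. Probes with values on at least 14 of 18 arrays were tested (7880 of 9600), and missing values were not filled in. Of these, 467 had 1 soybean gene symbol (309 genes).

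A generalised least squares model per probe held a mean for each of the 6 groups, a term for the dye and a random term for each plant (variance ratio of plant to array 0.25, by restricted maximum likelihood over all probes). Tests were limma moderated tests (limma 3.58.1, MASS 7.3.60.0.1, R 4.3.3, 12 residual and 3.95 prior degrees of freedom). They were two-sided, and p-values were adjusted by Benjamini-Hochberg over all tested probes. Simulated data with independent errors were used to test the model, but in the real arrays 39.7% of the residual variance lay on 1 component. Where fewer than 5 named probes passed, the 8 with the smallest p were named per comparison, with up to 4 further genes per list. Comparisons, members and lists were chosen with earlier results of these data known. Deviations of same-numbered drought plants correlated between -0.70 and 0.40, and those of differently numbered drought plants between -0.53 and 0.56. Neighbouring plants of the loop share array error, so these correlations cannot decide whether plant numbers pair the plants. Alternatives left out arrays or plants, changed scaling, filters, weights, the dye term and the plant term, or added a replicate block. The number of arrays limits the precision. Signal over background was not analysed here. Figures were drawn with matplotlib 3.10.9.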

Additional observations from a re-analysis of the deposited data

How the results depend on the processing

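The counts of probes past the adjusted limma threshold stayed at 0 in the 8 comparisons without the array marked BAD, with arrays centred, scaled or treated as independent, with complete probes, with no minimum of arrays, without the dye term, and with the replicate block. The 6 arrays that pair drought plants hold no well-watered plant, and with them alone the count was 0 in the 5 comparisons that could be fitted. The replicate block gave 279, 1042 and 750 probes at an unadjusted limma p below 0.05 against caroliniana, viridis and the mid-parent value, and changed no call. With the 4 direct arrays alone, 8 probes passed against viridis and 8 against the mid-parent value, but there viridis is 1 plant and 1 residual degree of freedom is left, so these calls compare the hybrid with that plant only. With array quality weights and arrays treated as independent, the count was 415 (222 positive, 193 negative) against viridis and 54 (46 and 8) against the mid-parent value. The largest weight fell on the array of hybrid drought plant 3 and viridis drought plant 3. For the differences from well-watered plants the count was 55, 171 and 364 against caroliniana, viridis and the mid-parent value. Without viridis drought plant 3 and hybrid well-watered plant 2 together, a setting chosen after seeing the data, it was 2 against viridis and 132, 197 and 372 for those differences from well-watered plants. The cause was not tested.

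With 1 plant left out at a time, the count ranged from 0 to 1 against caroliniana (1 without caroliniana drought plant 1), 0 to 2 against viridis (1 without viridis drought plant 1), 0 to 10 against the mid-parent value, and 0 to 130, 0 to 218 and 0 to 401 for the differences from well-watered plants; beyond both parents and between the parents it was 0. At an unadjusted limma p below 0.05 the counts ranged from 140 to 659 against caroliniana, 520 to 1821 against viridis, 361 to 1508 against the mid-parent value, 61 to 464 beyond both parents and 140 to 313 between the parents. Without the dye term they were 139, 614, 392 and 83.

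Some small differences changed side, though none was called. MIPS Gm05530 against the mid-parent value had 0.011 without the array marked BAD, 0.0091 with arrays centred, 0.013 with arrays scaled and 0.018 without both plants. With 1 plant left out, the mid-parent difference ranged from -0.067 to 0.036 for MIPS Gm05530, -0.065 to 0.25 for CAT1, -0.052 to 0.56 for CAT5, -0.15 to 0.0021 for GSA1, -0.24 to 0.035 for HEMB, -0.021 to 0.13 for PSAD Gm06019 and -0.14 to 0.025 for SODB. The difference from caroliniana ranged from -0.0091 to 0.36 for APX1 Gm02338, -0.089 to 0.43 for MET2 Gm03898 and -0.039 to 0.29 for PM37 Gm04880. No probe passed for caroliniana minus viridis in well-watered plants, so the planned description of the hybrid on such probes gave no value. No paired analysis beyond the replicate block was made, and whether plant numbers pair the plants is not known.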
